A study of Mus musculus with 20 samples.

Results

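Mm001 and Mm150 are 2 of the 120 mouse probes of the Sterolgene V1 array. They stood out among TCPOBOP-treated mouse livers because single animals gave log ratios well above those of the others of their genotype. They were selected on 3 features of the log ratios measured on these arrays: negative values in most PXR-deficient livers, high values on 1 CAR-deficient and 1 PXR-deficient array, and values that moved together. These features are therefore given below as descriptions with no test. The deposited files do not pair either identifier with a gene, so both are named by identifier only, and no sequence of either was used here. For the same reason the tissue label could not be set against marker genes.

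TCPOBOP is a synthetic compound that activates mouse CAR, the constitutive androstane receptor, which resides in the hepatocyte cytoplasm and moves to the nucleus when activated. The pregnane X receptor (PXR) is a related nuclear receptor that binds many drugs and steroids, and both pair with the retinoid X receptor on response elements near genes of drug metabolism. Both receptors are also known to influence genes of cholesterol and bile acid handling in liver, which the array was built to cover. Mice that lack one receptor show how much of a response passes through it.

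All mice were C57BL/6J males of 9-12 weeks on standard chow. Treated mice received TCPOBOP at 10 mg/kg into the peritoneum, vehicle mice received 5% DMSO in corn oil, and livers were taken 12 h later. Treated livers came from 4 PXR-deficient mice (PXRKO), 4 mice deficient in both CAR and PXR (CARPXRKO), 6 CAR-deficient mice (CARKO) and 6 wild type mice (WT). The labels do not describe how the deficient alleles were made. Each array held the Cy5-labelled RNA of 1 treated liver and the Cy3-labelled RNA of a pool of 6 vehicle livers of the same genotype, so each genotype had 1 pool and no spread between vehicle animals was measured. For 1 CARPXRKO array, replicate 3, the labels give the pool as PXR deficient in one field and as CAR/PXR in another. A log2 ratio is that of the treated liver over the pool after loess normalization within the array, and a value of 0 means that both channels matched. In whole liver, fewer cells of a type and less RNA per cell cannot be told apart.

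Over the 20 arrays the median foreground of the mouse spots was 226 to 987 intensity units in Cy5 and 403.5 to 1136 in Cy3, against median local backgrounds of 45.5 to 203 and 121 to 507.5. Between 0 and 247 of 578 spots per array were flagged and left out. Each probe had 3 spots, and 82 probes, Mm001 and Mm150 among them, entered the tests because each genotype had 3 or more arrays that measured them. The number of arrays limits the precision.

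Both probes were well measured. Mm001 lost 1 spot to a flag, on PXRKO 1, and Mm150 lost none. No pixel of any of their spots was saturated. The Cy3 signal of both lay more than 2 background SDs above the local background on every spot, and so did the Cy5 signal of Mm150. The Cy5 signal of Mm001 fell short of this on all 3 spots of WT 3 and on 1 spot each of WT 2 and WT 4. The 3 spots of each probe lie in different places of the same print block. The SD of the 3 Mm001 spots on an array had a median of 0.072 in PXRKO, 0.11 in CARPXRKO, 0.11 in CARKO and 0.13 in WT, all on the log2 scale. For Mm150 these medians were 0.058, 0.047, 0.036 and 0.075. The largest spot SDs, 0.42 for Mm001 on WT 4 and 0.37 for Mm150 on WT 3, both lay in WT.

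Mm001 had log2 ratios of −2.37, 0.82, −1.79 and −2.03 on PXRKO 1 to 4. Its values were 0.17, 0.55, 0.13 and 0.18 on CARPXRKO 1 to 4. In CARKO the lowest value was −0.17, the median −0.060 and the highest 2.54, and in WT the lowest was −0.33, the median −0.18 and the highest −0.11. With loess, PXRKO 1, 3 and 4 thus lay far below every other liver, while PXRKO 2 and CARKO 5 lay above all 18 others. The means were −1.34 ± 1.46 in PXRKO (SD, n = 4), 0.26 ± 0.20 in CARPXRKO (n = 4), 0.36 ± 1.07 in CARKO (n = 6) and −0.19 ± 0.085 in WT (n = 6). By median the order ran from PXRKO (−1.91) over WT (−0.18) and CARKO (−0.060) to CARPXRKO (0.18). Neighbours in this order overlapped: WT and CARKO over several livers, PXRKO and WT through PXRKO 2 alone, and CARKO and CARPXRKO through CARKO 5 alone.

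Mm150 showed a similar picture with smaller values. It stood at −1.09, 0.099, −0.85 and −0.87 on PXRKO 1 to 4. On CARPXRKO 1 to 4 it stood at 0.39, 0.44, 0.28 and 0.28. In CARKO the lowest value was −0.32, the median −2.446e-04 and the highest 1.06, the last on CARKO 5. In WT the lowest value was −0.77, on WT 6, the median was −0.20 and the highest 0.092. With loess the 3 low PXRKO livers again lay below all others, and CARKO 5 above all others. PXRKO 2 lay above the other PXRKO livers but within the spread of the remaining genotypes, which is where Mm150 differed from Mm001. The means were −0.68 ± 0.53 in PXRKO, 0.35 ± 0.077 in CARPXRKO, 0.12 ± 0.48 in CARKO and −0.22 ± 0.31 in WT (SD, same n as above).

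**Figure D1:**
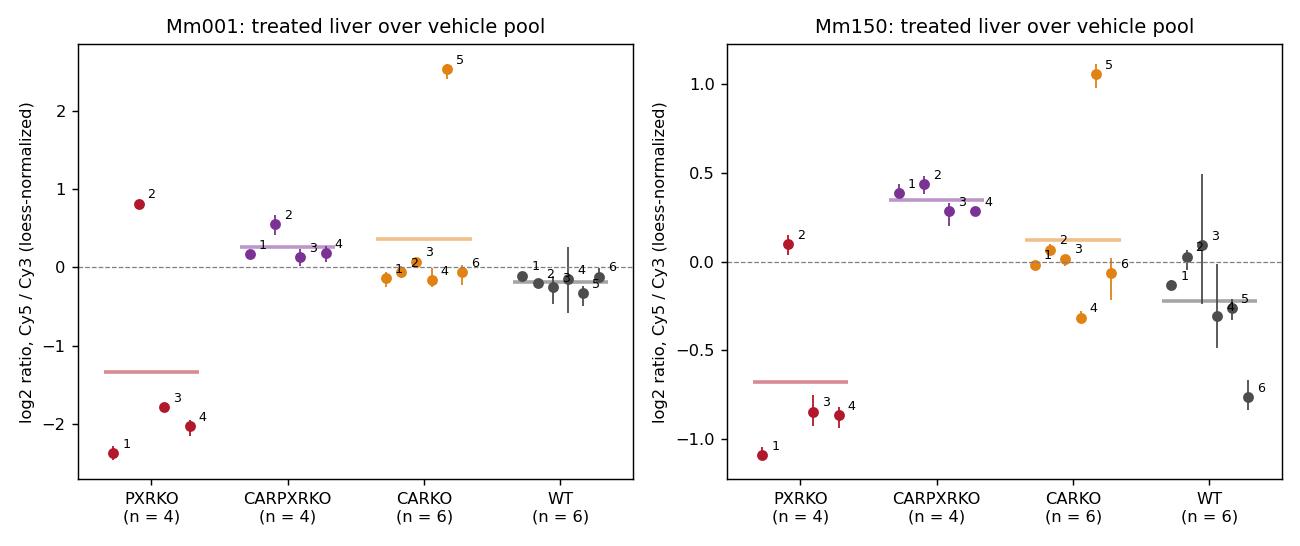
Log2 ratio of treated liver over vehicle pool (y axis) for Mm001 (left) and Mm150 (right) on each array, by genotype (x axis). Points are arrays with their replicate number, thin bars span the lowest to the highest spot, and thick lines are genotype means. Replicate 2 of PXRKO and replicate 5 of CARKO lie far above the other arrays of their genotype, at 0.82 and 2.54 for Mm001.

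The spread between animals was not a property of these probes in every genotype. The SD of Mm001 ranked 2nd of 82 probes in PXRKO and 2nd in CARKO, but 26th in CARPXRKO and 81st in WT, where the median SD of all tested probes was 0.23. That of Mm150 ranked 9th in PXRKO, 68th in CARPXRKO, 11th in CARKO and 30th in WT. Without PXRKO 2 the SD of Mm001 in PXRKO was 0.29 in place of 1.46, and without CARKO 5 its SD in CARKO was 0.094 in place of 1.07. For Mm150 the same SDs were 0.14 in place of 0.53 and 0.15 in place of 0.48. Without these arrays the SD of Mm001 still ranked 15th of 82 in PXRKO and ranked 66th in CARKO, and that of Mm150 ranked 48th and 46th. A description of the probes as variable between animals therefore rested largely on 2 of the 20 livers. Without CARKO 5 the CARKO means of both probes changed sign, to −0.071 for Mm001 and −0.063 for Mm150.

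The separate channels show where the deviations lay. Each channel's log2 signal was taken relative to the median, in that channel and array, of the 67 probes measured on all arrays. The Cy5 level of Mm001 was 2.61 on PXRKO 2, against a mean of −0.36 on the other 3 PXRKO arrays, and the Cy3 levels were 1.58 and 1.67, a difference of −0.088. On CARKO 5 the Cy5 level of Mm001 was 1.83, against a mean of −0.94 on the other 5 CARKO arrays, and the Cy3 levels were −0.76 and −0.84. Mm150 behaved alike, with Cy5 differences of 1.52 on PXRKO 2 and 1.56 on CARKO 5 and Cy3 differences of 0.14 and −0.072. On both arrays the treated liver's channel carried the deviation and the pool's channel matched the other arrays of the genotype.

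On the other 3 PXRKO arrays, with their low ratios, it was the pool's channel that stood apart. Mm001 had Cy3 levels of 1.79, 1.58, 1.52 and 1.69 on PXRKO 1 to 4. On the other 16 arrays its Cy3 level ran from −1.17 to 0.023, with a median of −0.67. The PXRKO pool was thus higher than every array of the other 3 pools, by 2.31 between the medians. This was the largest such difference among the 67 probes. The rule had chosen low PXRKO ratios, in which Cy3 is the denominator, so this rank is a description and no support. The Cy5 level of Mm001 on PXRKO 1, 3 and 4 was −0.53, −0.30 and −0.26. Those values lay inside the range of the 15 arrays other than PXRKO and CARKO 5, which was −1.23 to 0.24 with a median of −0.80, and their own median was 0.50 above it. The 3 low log ratios were thus measured against a pool with a high Mm001 signal, in treated livers whose median signal was no lower than that of the other 15 arrays. Each pool is a single RNA mixture, so this difference between pools has no replicate and no test.

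For Mm150 the channels differed less clearly. Its Cy3 level was 3.23, 3.28, 3.08 and 3.11 on PXRKO 1 to 4, against 1.93 to 3.03 with a median of 2.63 on the other 16 arrays. The difference between medians, 0.54, ranked 26th among the 67 probes. Its Cy5 level on PXRKO 1, 3 and 4, with a median of 2.28, lay within the 1.99 to 2.98 of the other 15 arrays, and their median was lower than that of the 15 arrays, by −0.28. With loess and Aquantile scaling of the channels, an alternative chosen after the data were seen, the Cy3 difference of PXRKO over the other 16 arrays was 2.21 for Mm001, with no overlap (11.7 to 12.3 against 9.50 to 10.6). For Mm150 it was 0.19, with overlapping ranges, while the Cy5 difference of PXRKO 1, 3 and 4 from the other 15 arrays was −0.62. The high level in the PXRKO pool therefore held under both scalings for Mm001 but not for Mm150. With that scaling Mm150 was at 13.3 in Cy5 on PXRKO 2, inside the 12.3 to 13.7 of the other 15 arrays.

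**Figure D2:**
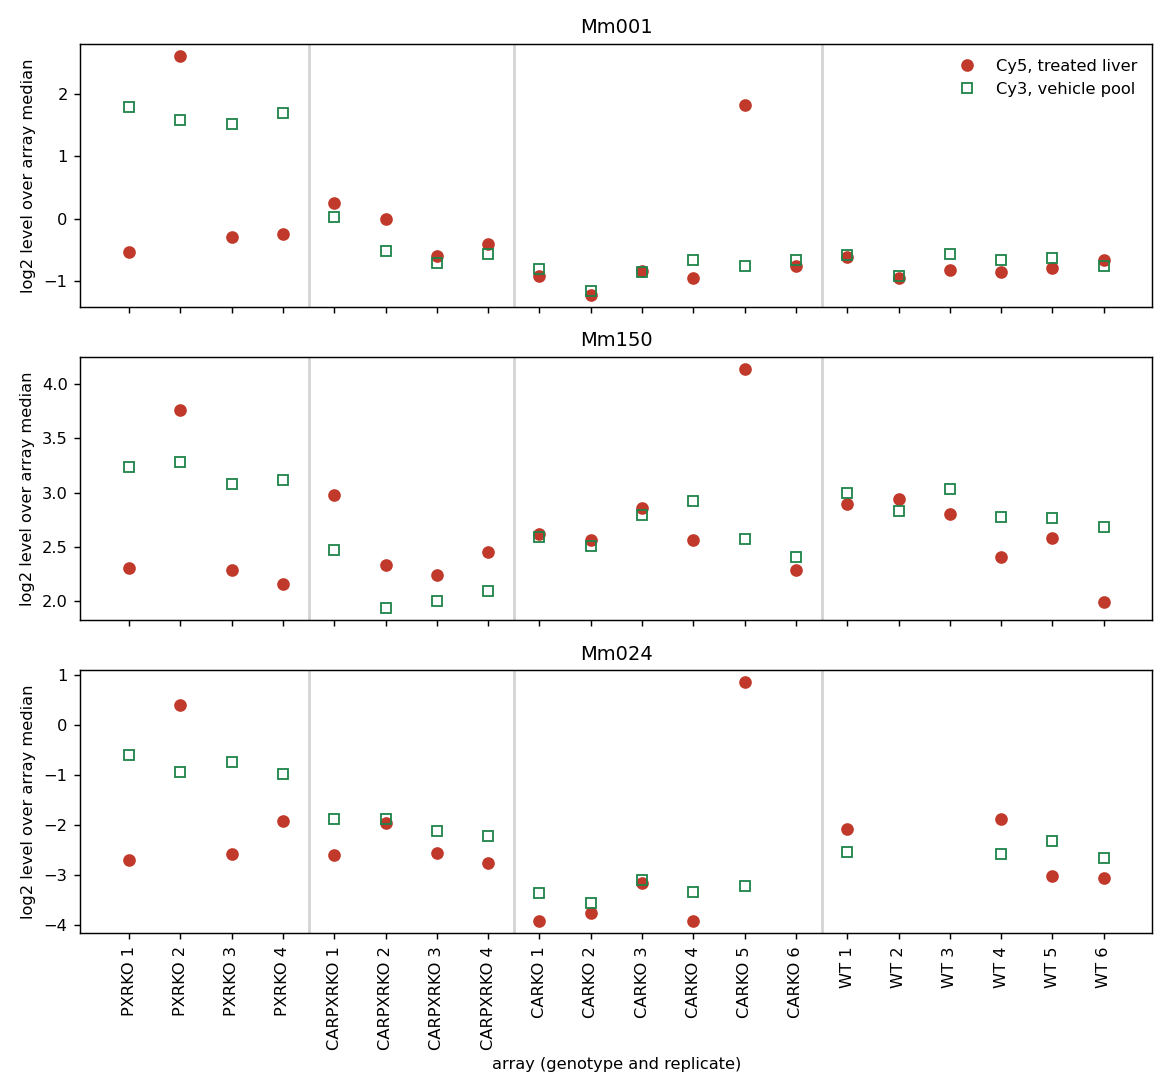
Level of Mm001, Mm150 and Mm024 in the treated liver's channel (Cy5, filled circles) and the pool's channel (Cy3, open squares) on each array, as log2 signal minus the array's median over 67 probes measured on all arrays. For Mm001 the Cy3 squares of the 4 PXRKO arrays sit at 1.52 to 1.79, above all other arrays, and the Cy5 circles stand apart on PXRKO 2 and CARKO 5. Arrays on which Mm024 had only flagged spots have no point.

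Mm001 and Mm150 lay on the same side of 0 on 17 of the 20 arrays. Taken as deviations from the genotype means, their values correlated with r = 0.87 (Pearson) and rho = 0.70 (Spearman) over the 20 arrays, which share an array design and, within a genotype, a pool. Without PXRKO 2 and CARKO 5, the 2 arrays that the rule for the probes had used as high, these were 0.20 and 0.41 over 18 arrays. The high correlation within genotypes thus rested on those 2 livers. Among the 18 other arrays, r was 0.94 within PXRKO (3 arrays), 0.79 within CARPXRKO (4), 0.60 within CARKO (5) and −0.39 within WT (6). Each of these rests on too few arrays to be relied on. In WT the Cy5 signal of Mm001 also lay near background on WT 3. Both probes were on the same side of 0 on 15 of these 18 arrays. The covariation was part of the rule by which the probes were chosen, so no p-value is given.

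**Figure D3:**
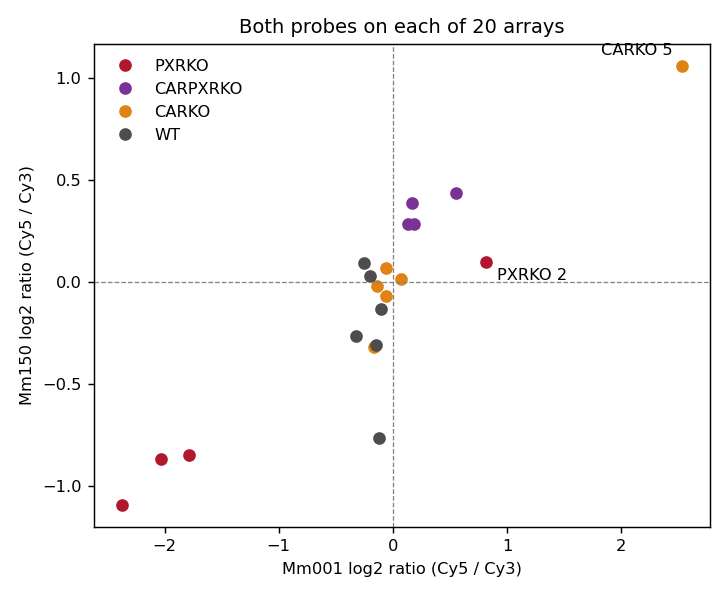
Log2 ratio of Mm001 (x axis) against that of Mm150 (y axis), treated liver over vehicle pool, with 1 point per array and colour by genotype. The 3 low PXRKO arrays sit at the lower left, CARKO 5 at the upper right (2.54 and 1.06), and the WT points spread along Mm150 only.

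By likeness across arrays the probe with the highest value for both was Mm024, which was poorly measured. Only 4 of the 17 arrays with a value had any Mm024 spot above background in both channels, so its ratios, and the correlations made from them, rest largely on signal near background. Its deviations from genotype means had a Pearson r of 0.94 with those of Mm001 and 0.91 with those of Mm150 over 17 arrays. The median correlation over 81 probes was 0.17 with Mm001 and 0.10 with Mm150. Without PXRKO 2 and CARKO 5 the correlations of Mm024 were 0.42 and 0.59. Mm024 had a log2 ratio of 1.47 on PXRKO 2, against −1.32, −0.90 and −0.69 on PXRKO 1, 3 and 4. On CARKO 5 it stood at 3.86, against −0.22 to 0.079 on the 4 other CARKO arrays with a value. No Mm024 spot of CARKO 5 had a Cy3 signal over 2 background SDs, so 3.86 is no measured fold. In Cy3, Mm024 also had its highest levels in the PXRKO pool, with a median of −0.85 against −3.57 to −1.88 on the 13 other arrays with a value, although its signal there was well above background on only 2 of the 4 PXRKO arrays.

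The probes with the most opposite pattern were Mm137 for Mm001 (Pearson −0.90) and Mm051 for Mm150 (−0.86), both over 20 arrays. Without PXRKO 2 and CARKO 5 these were −0.16 and −0.57, so the opposite pattern of Mm137 rested on those 2 arrays. Mm137 was at −0.73 on PXRKO 2, against 0.10 to 0.49 on the other PXRKO arrays, and at −0.90 on CARKO 5, against −0.084 to 0.082 on the other CARKO arrays. Mm051 was at 0.045 on PXRKO 2, against 0.96 to 1.67 on the other PXRKO arrays. On CARKO 5 it was at −1.60, against −0.33 to 0.14 on the other CARKO arrays.

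PXRKO 2 and CARKO 5 also differed from their groups in other probes, and in similar ones. On PXRKO 2 the difference from the mean of the other PXRKO arrays was 2.88 for Mm001, the largest of 82 probes, and 1.03 for Mm150, the 8th largest, with a median size of 0.40. On CARKO 5 it was 2.61 for Mm001 and 1.12 for Mm150, with a median size of 0.33 over 79 probes. Of these only Mm024, whose value there is no measured fold, had a larger one than Mm001. Across the 79 probes measured on both, the differences on PXRKO 2 and CARKO 5 correlated with r = 0.78 and rho = 0.67. Leaving out Mm001, Mm150 and Mm024 gave 0.63 for both measures over 76 probes. These correlations are across probes, which are not independent replicates. Only Mm001, Mm024 and Mm150 exceeded 1 on both arrays, and only Mm051 lay below −1 on both. The 2 arrays share neither genotype, pool nor slide position, as PXRKO 2 was in the lower and CARKO 5 in the upper position. Their quality values lay within the range of the series, with 154 and 190 flagged spots. Median signals were 503 in Cy5 and 776 in Cy3 on PXRKO 2, and 249 and 721.5 on CARKO 5. Before normalization the log2 ratio of Mm001 was the highest of its genotype on both arrays, at 0.76 and 1.15. That of Mm150 was 0.22 on PXRKO 2, below PXRKO 3 at 1.36. On CARKO 5 it was 0.13, below CARKO 1 to 3 at 0.20 to 0.38. Leaving out Mm001 and Mm150, the median correlation of PXRKO 2 with the other PXRKO arrays was 0.67, against 0.77 to 0.82 among those arrays, and that of CARKO 5 was 0.13, against 0.11 to 0.42. The part of array quality in these values was not tested.

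**Figure D4:**
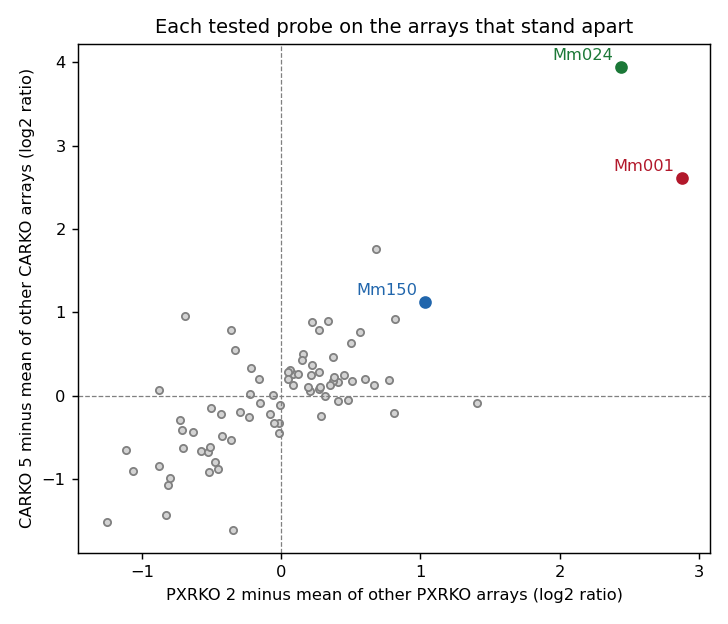
Each point is 1 of 79 tested probes, with the log2 ratio on PXRKO 2 minus the mean of the other PXRKO arrays on the x axis and that on CARKO 5 minus the mean of the other CARKO arrays on the y axis. Mm001, Mm150 and Mm024 are the only points above 1 on both axes.

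The position of the 2 arrays held under every processing tried, but before normalization Mm150 was highest of its genotype on neither array. Mm001 and Mm150 were higher on PXRKO 2 than on any other PXRKO array, and higher on CARKO 5 than on any other CARKO array, with loess and under all 9 other ways of computing the values. The size differed. The difference of Mm001 on CARKO 5 was 1.33 when arrays were centred on the calibration control spots. That of Mm150 was 0.27 on CARKO 5 with this centring, and 0.56 on PXRKO 2 with print-tip loess. With print-tip loess the value of Mm150 on PXRKO 2 was itself negative, at −0.095, as on the other PXRKO arrays. The mean of Mm150 in PXRKO was 0.16 with calibration centring, against −0.68 with loess, while the median over all probes in PXRKO moved to 0.46. The place of PXRKO 1, 3 and 4 below all other livers did not hold under every processing. With calibration centring Mm001 was at −0.92 on PXRKO 3 and −1.02 on PXRKO 4, above WT 1 to 4 (−1.14 to −1.05). In the authors' deposited table Mm001 was at −1.15 on PXRKO 3, above WT 2 at −1.22. With print-tip loess Mm150 was at −0.47 on PXRKO 3 and −0.42 on PXRKO 4, above WT 6 at −0.79. With median centring Mm150 on PXRKO 3, at −0.19, lay above WT 1, 3, 4 and 6. With calibration centring it was at −0.28, 0.10 and −0.036 on PXRKO 1, 3 and 4, above WT 1 to 4 (−1.32 to −0.98). The authors' table placed Mm150 likewise, at −0.42, −0.37 and −0.30 against −1.34 to −0.98.

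**Figure D5:**
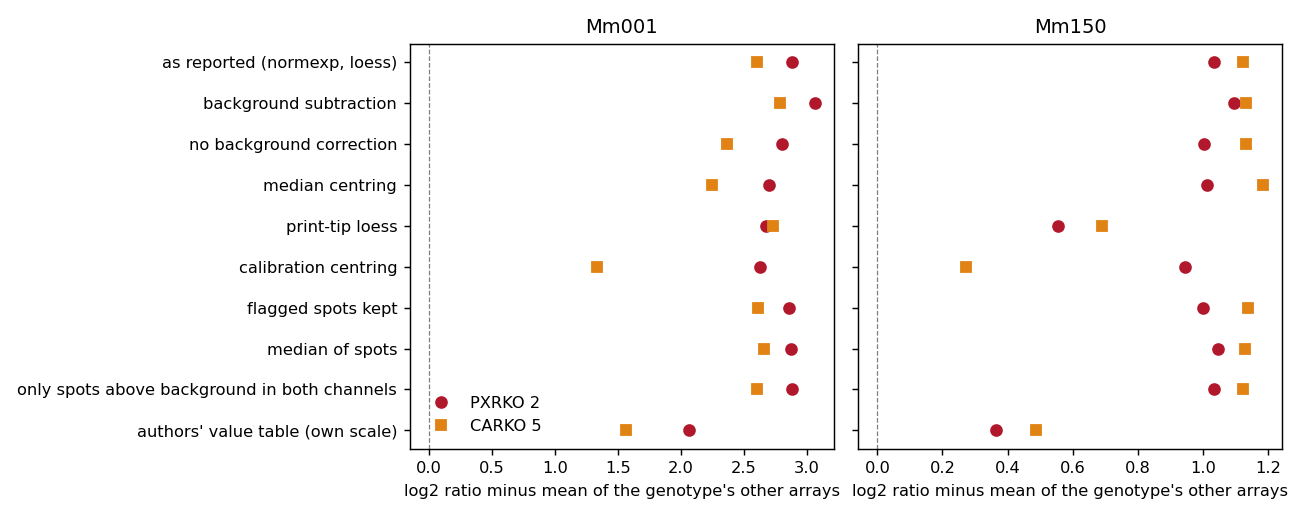
Difference of PXRKO 2 (circles) and CARKO 5 (squares) from the mean of the other arrays of the same genotype, as log2 ratio (x axis), under each way of processing (y axis). The row of the authors' deposited table is on that table's own scale, whose log base is not stated. All points lie above 0, and the smallest is Mm150 on CARKO 5 with calibration centring, at 0.27.

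The rule that chose the probes did not name their responses in CARPXRKO and WT livers, but it used their covariation over all 20 arrays, these included. The p-values that follow are therefore no independent support for a response or a difference. In CARPXRKO livers both probes were above 0 on 4 of 4 arrays with loess. The mean of Mm001 was −0.018 with calibration centring and was also negative in the authors' deposited table. Mm150 was below 0 on 2 of 4 CARPXRKO arrays with calibration centring, and on 1 of 4 in the authors' deposited table. With loess neither probe passed the threshold (limma, adjusted p = 0.712 for Mm001 and 0.253 for Mm150), while 20.7% of the 82 probes did, 12.2% higher and 8.54% lower. In WT livers Mm001 was below 0 on 6 of 6 arrays and Mm150 on 4 of 6. With print-tip loess, with calibration centring and in the authors' deposited table, Mm001 was below 0 on only 4 of 6 WT arrays. Neither probe passed in WT (limma, adjusted p = 0.701 and 0.267), while 39.0% of the probes did, 24.4% higher and 14.6% lower. The difference of CARPXRKO minus WT was 0.45 for Mm001 (95% interval −0.64 to 1.54, adjusted p = 0.525) and 0.57 for Mm150 (0.070 to 1.08, adjusted p = 0.0809) in the same fit, where 29.3% of the probes passed, 11.0% higher and 18.3% lower. That fit takes the spread of a probe from all 20 arrays, PXRKO 2 and CARKO 5 included.

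With loess the CARPXRKO and WT values did not overlap. For Mm001 they were 0.13 to 0.55 in CARPXRKO and −0.33 to −0.11 in WT, and for Mm150 0.28 to 0.44 in CARPXRKO and −0.77 to 0.092 in WT. The same held under 7 of the 9 other ways of computing the values, but with calibration centring and in the authors' deposited table the groups overlapped for both probes. With calibration centring Mm001 ran from −0.33 to 0.32 in CARPXRKO and from −1.14 to 0.58 in WT, and Mm150 from −0.13 to 0.51 in CARPXRKO and from −1.32 to 0.56 in WT. There the WT arrays fell apart for Mm001, with WT 1 to 4 at −1.14 to −1.05 and WT 5 and 6 both at 0.58. The cause was not tested. With loess, CARPXRKO lay above WT without overlap for 14.6% of the 82 probes and below it for 17.1%, and CARPXRKO was above 0 and WT below 0 on every measured array for 3.66%, Mm001 among them. A two-sided exact permutation test over the 210 splits of the 10 arrays, added after the lack of overlap was seen and run on the loess values only, gave p = 0.00476 for Mm001, the smallest it allows, and p = 0.00952 for Mm150. Adjusted over the 82 probes these were 0.0279 and 0.0391, and 32.9% of the probes passed. With only CARPXRKO and WT arrays in limma the adjusted p-values were 0.0080 and 0.0126, and with PXRKO 2 and CARKO 5 left out they were 0.0027 and 0.0021. Without PXRKO 2 and CARKO 5 the limma adjusted p-values of the single responses were 0.0313 for Mm001 and 0.0195 for Mm150 in CARPXRKO. In WT they were 0.0306 and 0.0380. Leaving out these arrays was tried after the data were seen. The rule had chosen the probes by their values on PXRKO 2 and CARKO 5, so a smaller spread without them was given beforehand. The p-values without them are therefore no support for a response or a difference. Within the upper slide position the differences were 0.38 and 0.44 and within the lower 0.52 and 0.71, with limma adjusted p = 0.806, 0.440, 0.549 and 0.132 in that order. Both differences were positive under every setting tried, at 0.35 to 0.66 for Mm001 and 0.44 to 0.80 for Mm150 outside the authors' deposited table. Whether they passed the threshold depended on the arrays that gave the spread and, for Mm150, also on the normalization, since its limma adjusted p over all 20 arrays was 0.0077 after print-tip loess and 0.0170 after centring on the median. As each genotype has 1 pool, an error of a pool cannot be told apart from a difference between genotypes.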

How the data were processed

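The deposited scanner tables give, per the file headers, median foreground and local background intensity per spot in both channels, the percent of saturated pixels and a flag score of 0 or below. How spots were flagged is not stated in the labels or headers. The authors' deposited value table holds log ratios, taken here as log2, though their base and centring are not stated. The slope of its values on the log2 ratios computed here had a median of 0.97 over the 20 arrays (0.85 to 1.14), nearest to log2. With plain background subtraction the median slope was 0.81, nearer to the 0.69 of natural log, so the slope did not settle the base. The authors' table served as an alternative for signs and calls, and its sizes are on its own scale. Groups and replicate numbers came from the titles.

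Intensities were corrected with normexp (offset 50) and normalized by global loess (span 0.3) in limma 3.58.1 (R 4.3.3), where control and flagged spots had weight 0, and the unflagged spots of a probe were averaged. A linear model with 1 mean per genotype was fitted to 20 arrays (lmFit, eBayes), with Benjamini-Hochberg adjustment over 82 probes and a threshold of 0.05; it was checked on simulated data. P-values measure the spread between treated livers only. The other probes named had the 2 highest and the 1 lowest Pearson correlation with either probe, among those measured on at least 15 arrays; the highest include the 2 probes themselves. Members, rule and lists were chosen with earlier results of these data known. On CARKO 3, CARPXRKO 3, WT 3 and WT 5 the protocol text of the Cy5 channel speaks of the pool, so the direction was taken from the dye and source labels. Gene lists and tissue markers could not be used, as identifiers carry no gene names. Dyes were not swapped. Figures were drawn with matplotlib 3.10.9.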

Additional observations from a re-analysis of the deposited data

Results flagged for a closer look

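Mm001 on CARKO 5, at 2.54, and Mm150 on CARKO 5, at 1.06, lay above the other 5 CARKO livers by a gap of 0.91 and 0.72 of the whole range. These values were part of the choice of the probes, so the gaps are a description and no test, as are those of PXRKO 2, at 0.82 for Mm001 and 0.79 for Mm150. Mm001 on CARPXRKO 2, at 0.55, lay above the other 3 CARPXRKO livers by a gap of 0.88 of the range, against a 95% limit of 0.829 in Dixon's test for 4 values. Chance gives such a gap in about 1 in 20 groups, and 8 groups were examined.

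The difference of CARPXRKO minus WT is listed here for Mm001 (0.45) and Mm150 (0.57), because the exact permutation test on the loess values passed the threshold for both, while limma over all 20 arrays did not. That test was added after the lack of overlap was seen, and the groups overlapped with calibration centring.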

How the results depend on the processing

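Besides the values in the report, the following changed. With median centring the difference of CARPXRKO minus WT was 0.78 for Mm150 (limma, adjusted p = 0.0170) and 38 probes passed, against 24; with print-tip loess it was 0.70 (adjusted p = 0.0077) and the correlation of Mm001 and Mm150 within genotypes was 0.66. With calibration centring, which moved the median over all probes to 0.46 in PXRKO, −0.31 in CARPXRKO, 0.30 in CARKO and −0.36 in WT, Mm150 passed in WT at −0.69 (limma, adjusted p = 0.0230), Mm001 was at −0.018 in CARPXRKO and Mm150 at 0.16 in PXRKO. There 0 probes passed in CARPXRKO by limma (15 at an unadjusted p under 0.05) and 8 for the difference. In the authors' deposited table, on its own scale, Mm150 was at −0.62 in WT (limma, adjusted p = 0.0421), Mm001 at −0.10 in CARPXRKO, and 6 probes passed in CARPXRKO, 15 in WT and 0 for the difference by limma (13 at an unadjusted p under 0.05). Keeping flagged spots gave 35 probes in CARPXRKO and 40 for the difference, and using only spots above background gave 8 in CARPXRKO and 21 in WT. The causes were not tested.

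With only the arrays compared, Mm150 passed in CARPXRKO at 0.35 (limma, adjusted p = 0.0057), 29 probes passed there, and the differences were 0.45 for Mm001 and 0.57 for Mm150. Leaving out PXRKO 2 and CARKO 5 kept the values at 0.26 and 0.35 in CARPXRKO and −0.19 and −0.22 in WT, gave CARKO means of −0.071 and −0.063, and lowered the correlation to 0.20. Within the upper slide position 0 probes passed in CARPXRKO by limma (12 at an unadjusted p under 0.05), 6 in WT and 6 for the difference. Within the lower position 0 passed in CARPXRKO by limma (18 at an unadjusted p under 0.05), the CARKO means were −0.096 for Mm001 and −0.11 for Mm150, and the correlation was 0.73. Without the 4 arrays with conflicting protocol text 8 probes passed in CARPXRKO. Leaving out 1 array at a time gave 9 to 13 probes in CARPXRKO, CARKO means of −0.071 to 0.47 for Mm001 and −0.063 to 0.21 for Mm150, negative only without CARKO 5, and correlations of 0.76 to 0.95.

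Same-numbered arrays of different genotypes had mean correlations of −0.13, 0.056, 0.039 and 0.11 for replicates 1 to 4. They also lay in the same slide position, and whether they shared other handling was not tested. With the replicate number as a block the difference was 0.66 for Mm001 (limma, adjusted p = 0.325) and 0.59 for Mm150 (adjusted p = 0.0564), and 15 probes passed in CARPXRKO, 32 in WT and 23 for the difference. Mm001 lay near background in Cy5 on WT 3, which limits its WT values.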
